A study of Mus musculus with 4 samples.

Results

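Granule genes of neutrophils, basophils, mast cells and eosinophils were followed in surface tissue of the fetal mouse liver with and without p57, the cyclin-dependent kinase inhibitor encoded by Cdkn1c. The group was a list of 34 genes, matched by symbol to probe sets that carry a single gene name in the platform annotation. Of the 34, 32 had a probe set, 42 probe sets in all, among 18193 genes named on the array. Cebpe and Prss34 were not analysed here. The study compared mesothelial and submesothelial cells, the sheet that covers the organ and the cells just under it, dissected from livers of C57BL/6 embryos at embryonic day 17.5. There were 2 samples from wild-type embryos (p57+/+) and 2 from embryos without p57 (p57-/-, labelled Kip2 -/-), and 1 sample of each genotype belonged to each of 2 experiments. The labels do not say what an experiment shared, whether samples were pooled, or in which cells and how p57 was deleted. The labels name no treatment of either genotype.

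Neutrophils mature through stages that fill their granules in order. Primary granules are loaded in promyelocytes with myeloperoxidase and serine proteases, secondary and tertiary granules later with lactoferrin, cathelicidins and collagenase, and the late cytosol fills with the calcium-binding proteins S100A8 and S100A9. Basophils, mast cells and eosinophils carry their own proteases, the IgE receptor and cationic proteins. The fetal liver is a site of blood formation, where developing granulocytes lie in and near the tissue under the capsule. Known targets of the ETS factor PU.1 and of C/EBP factors are found among the granule genes of neutrophils.

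Promoter windows of the 4 primary granule genes, of the G-CSF receptor gene Csf3r and of the secondary granule genes Ngp and Chil3 are shown to set the granule classes described further on side by side. Elane is included as a primary granule gene although its signal did not differ the same way in both experiments. Each window of 300 bases runs from 250 bases before to 50 bases after the start of the gene, in the direction of transcription, and was taken from RefSeq on GRCm38.p6. Capitals mark the letters GAGGAA (a PU.1 core) and TTNNGNAA (a C/EBP core), searched on both strands, and no match of one overlapped a match of the other in the members' windows.
Mpo (chr11:87793534-87793833, plus strand): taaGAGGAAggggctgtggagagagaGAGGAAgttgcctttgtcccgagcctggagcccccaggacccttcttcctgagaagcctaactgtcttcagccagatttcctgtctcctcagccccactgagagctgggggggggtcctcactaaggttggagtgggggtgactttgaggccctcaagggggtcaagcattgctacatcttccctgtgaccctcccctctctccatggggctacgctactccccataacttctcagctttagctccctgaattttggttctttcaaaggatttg
Prtn3 (chr10:79879417-79879716, plus strand): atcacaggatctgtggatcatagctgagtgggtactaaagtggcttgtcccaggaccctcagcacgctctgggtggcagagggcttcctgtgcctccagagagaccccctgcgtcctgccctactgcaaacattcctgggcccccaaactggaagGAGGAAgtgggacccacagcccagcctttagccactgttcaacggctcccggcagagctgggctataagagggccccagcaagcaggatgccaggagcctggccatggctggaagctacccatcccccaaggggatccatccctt
Elane (chr10:79886062-79886361, plus strand): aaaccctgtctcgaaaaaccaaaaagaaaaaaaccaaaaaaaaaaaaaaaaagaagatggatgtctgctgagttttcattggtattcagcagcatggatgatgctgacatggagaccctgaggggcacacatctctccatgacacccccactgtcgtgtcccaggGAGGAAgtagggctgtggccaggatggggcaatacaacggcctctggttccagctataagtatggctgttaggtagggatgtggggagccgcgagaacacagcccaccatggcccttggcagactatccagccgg
Ctsg (chr14:56102525-56102824, minus strand): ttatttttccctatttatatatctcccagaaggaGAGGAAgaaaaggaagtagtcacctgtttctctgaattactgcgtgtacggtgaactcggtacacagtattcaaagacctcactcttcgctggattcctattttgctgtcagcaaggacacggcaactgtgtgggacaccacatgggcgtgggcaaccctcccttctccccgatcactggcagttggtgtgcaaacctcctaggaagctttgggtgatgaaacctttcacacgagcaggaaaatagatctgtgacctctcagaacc
Csf3r (chr4:126024409-126024708, plus strand): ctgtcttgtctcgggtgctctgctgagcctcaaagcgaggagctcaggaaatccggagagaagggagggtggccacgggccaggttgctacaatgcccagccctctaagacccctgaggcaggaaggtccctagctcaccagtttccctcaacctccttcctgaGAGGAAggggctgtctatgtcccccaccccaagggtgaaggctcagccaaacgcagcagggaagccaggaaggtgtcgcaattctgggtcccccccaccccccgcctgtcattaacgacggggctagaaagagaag
Ngp (chr9:110419558-110419857, plus strand): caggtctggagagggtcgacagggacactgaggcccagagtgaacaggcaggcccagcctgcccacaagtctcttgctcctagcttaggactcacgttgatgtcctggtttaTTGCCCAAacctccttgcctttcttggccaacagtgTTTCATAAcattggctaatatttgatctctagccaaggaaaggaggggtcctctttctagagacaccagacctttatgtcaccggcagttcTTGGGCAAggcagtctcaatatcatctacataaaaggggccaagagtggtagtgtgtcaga
Chil3 (chr3:106167515-106167814, minus strand): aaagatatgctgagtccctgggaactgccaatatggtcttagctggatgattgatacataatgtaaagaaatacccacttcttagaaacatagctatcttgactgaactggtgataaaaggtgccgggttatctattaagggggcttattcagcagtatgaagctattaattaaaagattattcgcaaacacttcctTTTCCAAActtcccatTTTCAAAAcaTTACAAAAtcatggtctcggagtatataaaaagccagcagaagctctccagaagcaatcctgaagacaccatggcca

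All 4 primary granule windows and that of Csf3r held GAGGAA, and none of these 5 held TTNNGNAA. Windows of 7 of the 8 secondary and tertiary granule genes held TTNNGNAA, and 2 of those 8 genes held GAGGAA. All 5 surface protein genes, Csf3r among them, held GAGGAA and 3 held TTNNGNAA. Over the 35 windows of the 32 members that had one, 48.6% held GAGGAA and 48.6% held TTNNGNAA. Among all 32851 windows of this length, the shares were 28.3% and 40.7%. The windows were chosen for display after these matches and the signals were seen. A match describes letters and shows no binding. TTNNGNAA is a narrow form of the C/EBP core, so a window without it may still hold a C/EBP site.

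Signals are MAS5 values on a linear scale, which the authors scaled to the same average on every array, and each probe set was called Present, Marginal or Absent. Present calls made up 48.5% to 50.1% of the probe sets, and the highest signals were 61857 to 74260. Signs of RNA quality overlapped between genotypes, with 3' over 5' ratios between 0.945 and 1.18 (Gapdh) and between 1.56 and 1.76 (Actb). Cdkn1c gave 10255 and 9866 on the p57+/+ arrays and 7.79 and 7.28, both Absent, on the p57-/- arrays, matching the labels. Both p57-/- arrays had Present signals of Xist and of the Y-linked gene Eif2s3y (966 and 904). In p57+/+, Eif2s3y was Absent in experiment 1 (2.56) and Present in experiment 2 (1734), and the brightest Xist probe set gave 12199 and 86.7. That Xist probe set gave 7889 and 6412 in p57-/-. Each p57-/- sample thus held transcripts of both sexes, and each p57+/+ sample mainly those of 1 sex. The sex make-up of the samples differed between the p57+/+ arrays and between genotypes, and its part in the granule gene differences was not tested. Whether samples were separate embryos is not stated, so a p-value here reflects only how far these arrays differ, in part perhaps for technical reasons. The samples also hold many cell types, and more cells of a type cannot be told apart from more RNA per cell.

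Of the 32 genes with a probe set, 27 were tested with 30 probe sets. A probe set was tested where 2 or more of the 4 arrays called it Present, in any genotype, and each gene is described by its tested probe set of highest mean log2 signal. Cxcr2, the receptor for CXC chemokines on neutrophils, was Present on 1 array and was not tested. The mast cell protease gene Cpa3, the IgE receptor chain gene Fcer1a, and the eosinophil genes Prg3 and Epx were never called Present. From a list of other granulocyte genes, the mast cell protease genes Cma1, Tpsb2, Tpsab1 and Mcpt4 and the eosinophil receptor genes Ccr3 and Il5ra were never called Present either. Other genes of these lineages were detected. Mcpt8, Gata2, Kit and Prg2, and from the other list the eosinophil lectin gene Siglecf and the histidine decarboxylase gene Hdc, were Present on all 4 arrays, and Ms4a2 on 2. Genes of basophils, mast cells and eosinophils were thus detected in part. Mcpt8 is a basophil gene, and Kit and Gata2 are shared with blood progenitors, so their detection does not show mast cells.

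Most granule genes had slightly higher signals in p57-/-. In both experiments 20 of the 27 tested genes were higher in p57-/- and 0 were lower, beside 29.6% of all 11656 tested genes that were higher in both and 26.7% that were lower in both. Both p57-/- arrays lay above both p57+/+ arrays for 17 of the 27, beside 21.7% of all genes, and below for 0, beside 19%. The median log2 change, p57-/- minus p57+/+, was 0.18 over the 27 genes and 0.02 over all tested genes. Genes of shared cell types on the same 4 arrays can move together, so the 27 are not separate observations. These counts are a description and no test. The differences were small, with log2 changes from -0.06 to 0.59. Of the genes tested, Ms4a2 alone passed the detection filter through p57-/- arrays only. Among the 26 members detected on all 4 arrays 19 were higher in both experiments, and among all 32 with no filter 22 were, with 0 lower either time. The shares of all genes above belong to the main filter, and none are given for these other filters. Leaving out the filter adds Cxcr2 and 4 members that were never called Present.

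No member passed the test. With limma, 0 of 30 probe sets had an adjusted p under 0.05, against 0% of all 22800 tested probe sets called higher and 0.00439% called lower. The lowest adjusted p was 0.549, for Prtn3 and Mpo, whose log2 changes were 0.41 (SE 0.11) and 0.37 (SE 0.11), higher on 2 of 2 p57-/- arrays. At an unadjusted p under 0.05 there were 8 member genes higher and 0 lower, beside 4.7% and 4.07% of all tested genes. These 8 were Prtn3, Mpo, Csf3r, Lyz2, Chil3, Mmp8, Ctsg and Hp1bp3. An exact permutation test of 2 arrays against 2 cannot go below p = 0.333, two-sided.

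**Figure D1:**
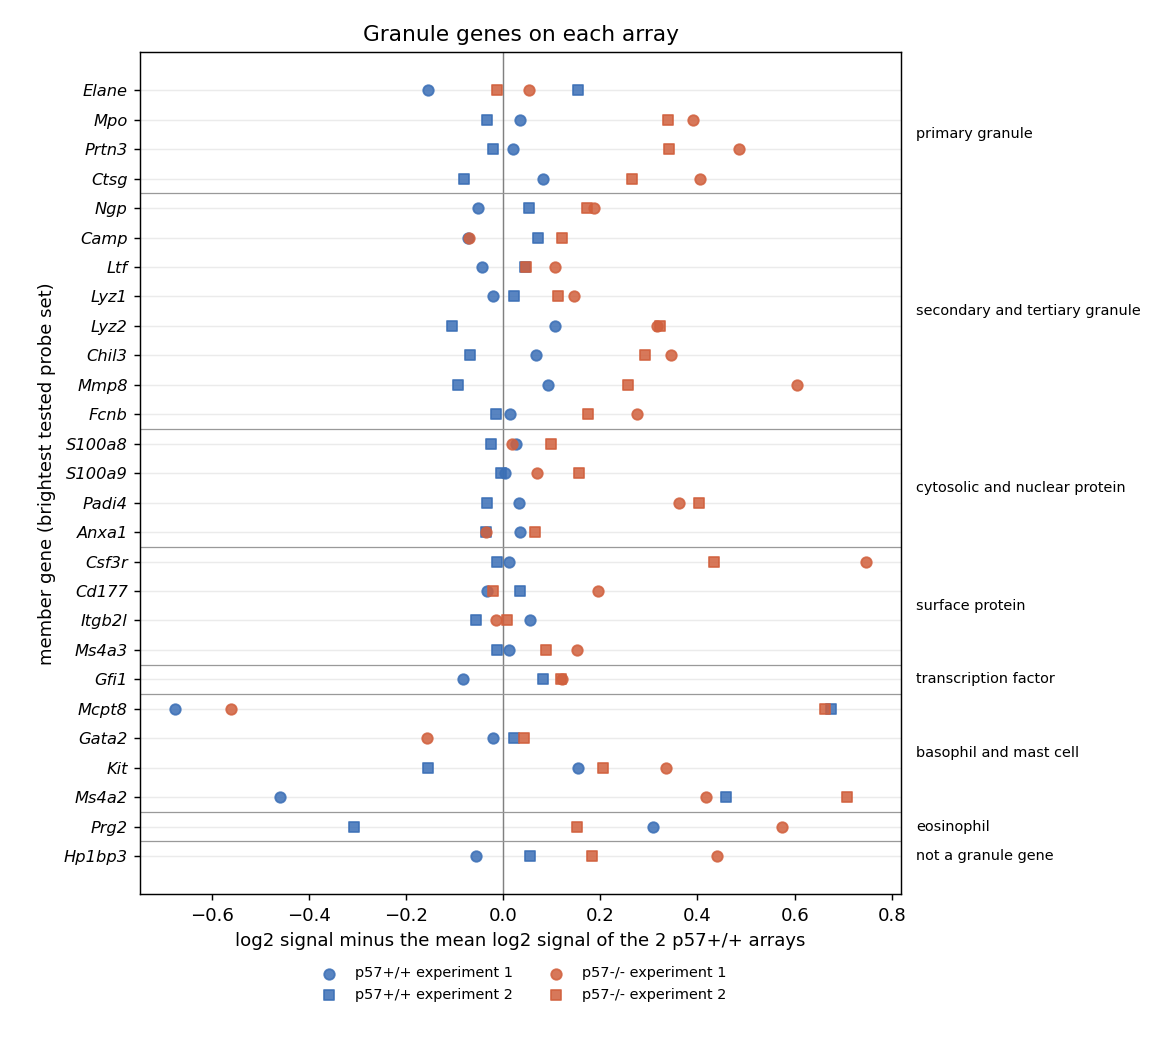
Each row is a tested member, and the horizontal axis gives the log2 signal on each of the 4 arrays minus the mean of the 2 p57+/+ arrays. Blue marks p57+/+ and orange p57-/-, circles experiment 1 and squares experiment 2, and 17 of the 27 rows have both orange marks to the right of both blue ones.

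The pattern was also seen among the brighter members. Of the 20 members whose geometric mean signal reached 500, 15 were higher in p57-/- in both experiments, beside 30.9% of the 6896 tested genes that bright. Both p57-/- arrays lay above both p57+/+ arrays for 14 of these 20, beside 23.1%. The 6896 genes share this cut with the members but were not matched to them in signal. In experiment 1, 23 of the 27 members were higher in p57-/- with a median of 0.21, and in experiment 2, 24 were higher with a median of 0.13. Of all 11656 tested genes, 6256 were higher in experiment 1 and 5737 in experiment 2, with medians of 0.03 and -0.00467.

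Among the primary granule genes, Mpo, Prtn3 and Ctsg were higher by nearly the same amount in both experiments, and Elane was not. Mpo encodes myeloperoxidase, which makes hypochlorous acid, and gave 11590 and 11053 in p57+/+ against 14844 and 14324 in p57-/-. Its log2 change was 0.36 in experiment 1 and 0.37 in experiment 2, a mean of 1.29-fold, while arrays of 1 genotype differed by at most 0.07. Both p57-/- arrays were the high ones, and the genotypes did not overlap.

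Prtn3, which encodes proteinase 3, gave 6092 and 5919 in p57+/+ against 8403 and 7613 in p57-/-. The 2 p57-/- arrays were again higher, with log2 changes of 0.46 and 0.36 in experiments 1 and 2. Ctsg, the gene of the chymotrypsin-like protease cathepsin G, gave 3152 and 2815 in p57+/+ against 3943 and 3580 in p57-/-, for a log2 difference of 0.33 (SE 0.13, limma adjusted p = 0.605). The groups did not overlap, and the changes of the 2 experiments were 0.32 and 0.35.

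Elane encodes neutrophil elastase, and its gene lies next to Prtn3 with no protein-coding gene between them in RefSeq order. It gave 724 and 896 in p57+/+ against 835 and 798 in p57-/-. Here the p57-/- values lay between the p57+/+ values, and the change was 0.21 in experiment 1 and -0.17 in experiment 2. The mean log2 change of 0.02 (SE 0.17) turned to -0.13 without p57+/+ replicate 1 and to -0.01 without p57-/- replicate 1.

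**Figure D2:**
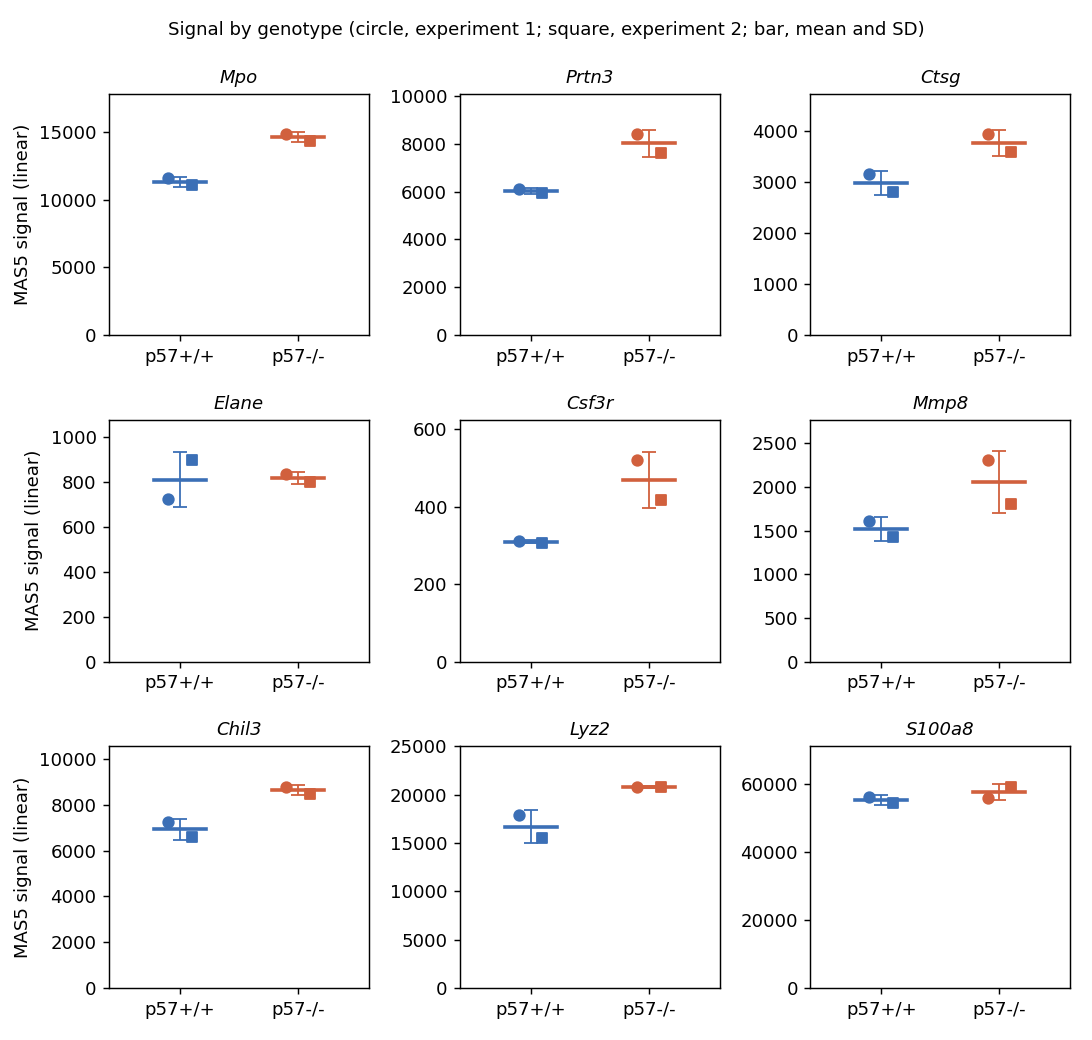
Each panel shows 1 gene, with the linear MAS5 signal on a vertical axis that starts at 0 and the genotype on the horizontal axis. Circles are experiment 1, squares experiment 2, and bars the mean and SD of 2 arrays; the genotypes overlap for Elane and S100a8 and do not for the other 7 genes.

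The secondary and tertiary granule genes were all higher in p57-/- in both experiments, 8 of 8, beside 29.6% of all tested genes. Their median log2 change was 0.20, but Camp in experiment 1 and Ltf in experiment 2 were higher by only 0.00135 and 0.00271. Mmp8, the neutrophil collagenase gene, had the largest change of the 8 at 0.43 (SE 0.16, limma adjusted p = 0.581). It gave 1617 and 1423 in p57+/+ against 2308 and 1811 in p57-/-, so the p57-/- arrays were higher but also further apart. Chil3, which encodes the chitinase-like protein Ym1, gave 7264 and 6615 against 8803 and 8481. Its groups did not overlap, and its log2 change was 0.32 (SE 0.11, limma adjusted p = 0.578).

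Lysozyme breaks bacterial cell walls and has 2 genes in the mouse that lie side by side. Lyz2, which monocytes and macrophages also express, gave 17936 and 15482 in p57+/+ against 20767 and 20851 in p57-/-, for a log2 difference of 0.32 (SE 0.11, limma adjusted p = 0.578). Both p57-/- arrays were high and nearly equal. The brightest Lyz1 probe set gave 28234 and 29103 in p57+/+ against 31694 and 30977 in p57-/-, for a log2 difference of 0.13 (SE 0.10). Its identifier marks probes that can match other transcripts, as does that of another Lyz1 probe set at 0.07 (SE 0.10), so signal of the paralogs cannot be told apart there. The Lyz1 probe set without that mark was dim, at 29.8 and 39.2 in p57+/+, Absent and Marginal, and 51.26 and 56.98 in p57-/-, both Present. It thus passed the detection filter through p57-/- arrays only, and its log2 difference was 0.66 (SE 0.52, limma adjusted p = 0.774).

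The remaining genes of this class had log2 differences of 0.03 to 0.23. Fcnb, which encodes the sugar-binding protein ficolin B, gave 951 and 933 in p57+/+ against 1141 and 1063 in p57-/-, without overlap. Ngp, neutrophilic granule protein, gave 31245 and 33615 against 36873 and 36531, also without overlap, and a log2 change of 0.18 (SE 0.10). The iron-binding protein gene Ltf gave 11203 and 11911 against 12440 and 11933, where the nearest arrays of the 2 genotypes were almost equal. Camp, the antimicrobial cathelicidin gene, gave 22878 and 25262 against 22900 and 26140. Camp values overlapped between genotypes and followed the experiment, with a log2 change of 0.03 (SE 0.11) that was -0.02 after quantile normalization.

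Genes of cytosolic and nuclear proteins were split. S100a8 and S100a9, neighbouring genes whose products form calprotectin, lay close to the highest signals of the arrays, and saturation was not tested. S100a8 gave 56328 and 54374 in p57+/+ against 56012 and 59262 in p57-/-, with overlap and a log2 difference of 0.06 (SE 0.10) that was -0.01 after quantile normalization. S100a9 gave 55536 and 55200 against 58079 and 61717, without overlap, for a log2 difference of 0.11 (SE 0.10).

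Padi4, the enzyme that citrullinates histones in neutrophil nuclei, gave 196 and 187 in p57+/+ against 246 and 253 in p57-/-. Its p57-/- arrays were both higher, by 0.38 on the log2 scale (SE 0.22, limma adjusted p = 0.700). Anxa1, which encodes annexin A1 and is expressed in many cell types, gave 10159 and 9686 against 9678 and 10379, with overlap and a log2 change of 0.01 (SE 0.11). That change turned to -0.01 after quantile normalization. A further Anxa1 probe set, not tested, was Absent on all 4 arrays.

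By the probe set that describes each gene, the G-CSF receptor gene Csf3r had the largest log2 change of the members, 0.59 (SE 0.20, limma adjusted p = 0.561). It gave 312 and 307 in p57+/+ against 520 and 419 in p57-/-. The p57+/+ arrays were nearly equal, both p57-/- arrays were higher, and the change was 0.74 in experiment 1 and 0.45 in experiment 2. Ms4a3, a membrane protein of granulocyte precursors, gave 1800 and 1769 against 1983 and 1896, without overlap, for a log2 difference of 0.12 (SE 0.13).

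The other surface protein genes overlapped between genotypes. Cd177, a neutrophil surface antigen, gave 695 and 729 in p57+/+ against 815 and 701 in p57-/-. Itgb2l, an integrin beta subunit gene, gave 806 and 747 against 768 and 780, for a log2 difference of -0.00286 (SE 0.15). Gfi1, the repressor needed for neutrophil maturation, gave 325 and 365 against 374 and 374, for a log2 difference of 0.12 (SE 0.19). Csf3r, Padi4, Gfi1, Gata2, Mcpt8 and Prg2 were dimmer than the level set for naming a gene, and were named after their values were seen.

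Basophil, mast cell and eosinophil genes were detected in part. Of 10 such members, 5 were tested, against 21 of 23 neutrophil members. Of these 5, 3 were higher in p57-/- in both experiments and 0 lower, beside 29.6% and 26.7% of all tested genes. Both p57-/- arrays lay above both p57+/+ arrays for 1 of the 5, a share near the 21.7% of all tested genes. Among the 3 higher genes, Ms4a2 passed the detection filter through p57-/- arrays only. The gene without overlap was Kit, the stem cell factor receptor gene, which blood progenitors and mast cells share. Kit gave 985 and 795 in p57+/+ against 1116 and 1020 in p57-/-, for a log2 difference of 0.27 (SE 0.16, limma adjusted p = 0.714). A further Kit probe set, Present on 1 array and not tested, was dim, at 45.5 and 45.1 against 91.1 and 77.1. Gata2, a transcription factor gene of progenitors, mast cells and endothelium, gave 377 and 389 against 344 and 394, with overlap.

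Mcpt8, a basophil protease gene that lies next to Ctsg, followed the experiment and not the genotype. It gave 105 in p57+/+ and 113 in p57-/- in experiment 1, and 267 and 264 in experiment 2, so it was 2.55-fold higher in experiment 2 in p57+/+ and 2.33-fold higher in p57-/-. Prg2, which encodes the major basic protein of eosinophils, gave 128 and 83.5 in p57+/+ against 154 and 115 in p57-/-. Its values overlapped, although it was higher in p57-/- within each experiment. Ms4a2, the beta chain of the IgE receptor, was Absent in p57+/+ (35.99 and 68.02) and Present in p57-/- (66.1 and 80.8). Its signals overlapped between genotypes, and its log2 difference was 0.56 (SE 0.47, limma adjusted p = 0.788). That difference was 0.10 without p57+/+ replicate 1 and 1.022 without p57+/+ replicate 2. Another Ms4a2 probe set, not tested, was Absent on every array.

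Hp1bp3 is on the list but encodes a chromatin protein that binds HP1, made in many cell types, and is no granule gene. It gave 3139 and 3388 in p57+/+ against 4422 and 3703 in p57-/-, while its other tested probe set was at -0.07 (SE 0.28). Without Hp1bp3, 19 of 26 members were higher in both experiments and the median was 0.15.

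**Figure D3:**
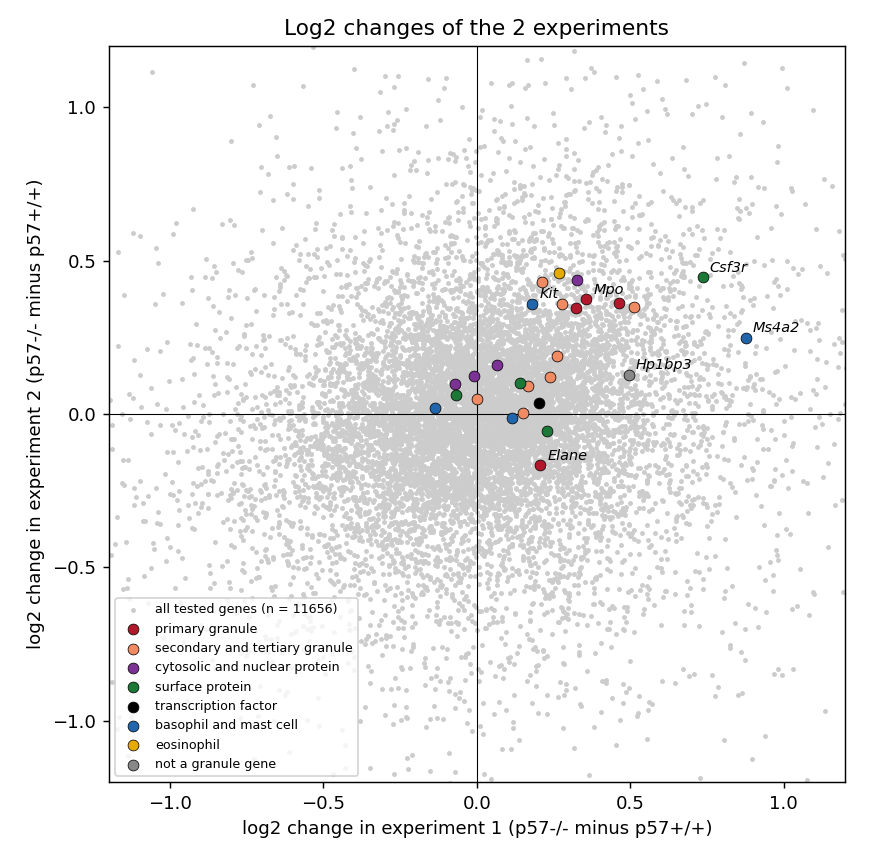
Each point is a tested gene, with its log2 change in experiment 1 on the horizontal axis and in experiment 2 on the vertical axis. Members are coloured by class over all tested genes in grey, 20 of 27 members lie in the upper right, and none in the lower left; 410 genes beyond 1.2 on either axis are not drawn.

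Neighbouring members did not always share a change. In RefSeq gene order, 12 members lie directly beside another member. Prtn3 and Elane differed as given above, with log2 changes of 0.41 and 0.02, as did Ctsg and Mcpt8, at 0.33 and 0.05. S100a8 and S100a9 were at 0.06 and 0.11, and Ms4a3 and Ms4a2 at 0.12 and 0.56. These differences between neighbours were not tested.

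Other granulocyte genes, from a list with no member in it, had more higher than lower signals. The list was read on the same 4 arrays and chosen with earlier results of these data known, so it is no separate test. Of 48 tested genes, 23 were higher in both experiments and 4 lower, beside 29.6% and 26.7% of all tested genes, and the median was 0.18. The genotypes did not overlap for 19 higher and 3 lower, beside 21.7% and 19%. None passed (limma, lowest adjusted p = 0.557), and 8 were higher and 1 lower at an unadjusted p under 0.05, beside 4.7% and 4.07%. The lectin receptor gene Clec4d had the largest log2 change, 1.30 (SE 0.46), from 76.6 and 87.7 in p57+/+ to 349 and 117 in p57-/-, so its size rests on p57-/- replicate 1. Csf2rb, the shared receptor chain for GM-CSF, IL-3 and IL-5, was at 0.58 (SE 0.22).

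The C/EBP factor genes Cebpd and Cebpb, which act in myeloid cells and hepatocytes, were at 0.55 (SE 0.21) and 0.41 (SE 0.13). Gata1, a factor of eosinophils, mast cells and mainly of red cells, was lower at -0.53 (SE 0.21), from 2268 and 2571 to 1308 and 2151. All 5 of these genes had changes of larger size in experiment 1 than in experiment 2.

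Markers of other blood cells differed between the samples as well. Erythroid markers were lower in p57-/- in both experiments for 9 of 10 tested genes, with a median of -0.51, and their summed signal was 107228 and 113038 in p57+/+ against 73144 and 97444 in p57-/-. Monocyte markers had a median of 0.41, with 4 of 6 higher in both, and sums of 4472 and 4505 against 8303 and 5569. Macrophage markers were mixed, with 4 of 15 higher and 3 lower in both, and sums of 40146 and 39613 against 47830 and 35279. For the 21 tested neutrophil members the sums were 269044 and 268389 against 293426 and 299883, higher on both p57-/- arrays. A few bright genes carry these sums. The cytosolic and nuclear class, mostly S100a8 and S100a9, gave 122219 and 119448 of them in p57+/+ and 124015 and 131611 in p57-/-. The part of these other cells in the granule gene differences was not tested.

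**Figure D4:**
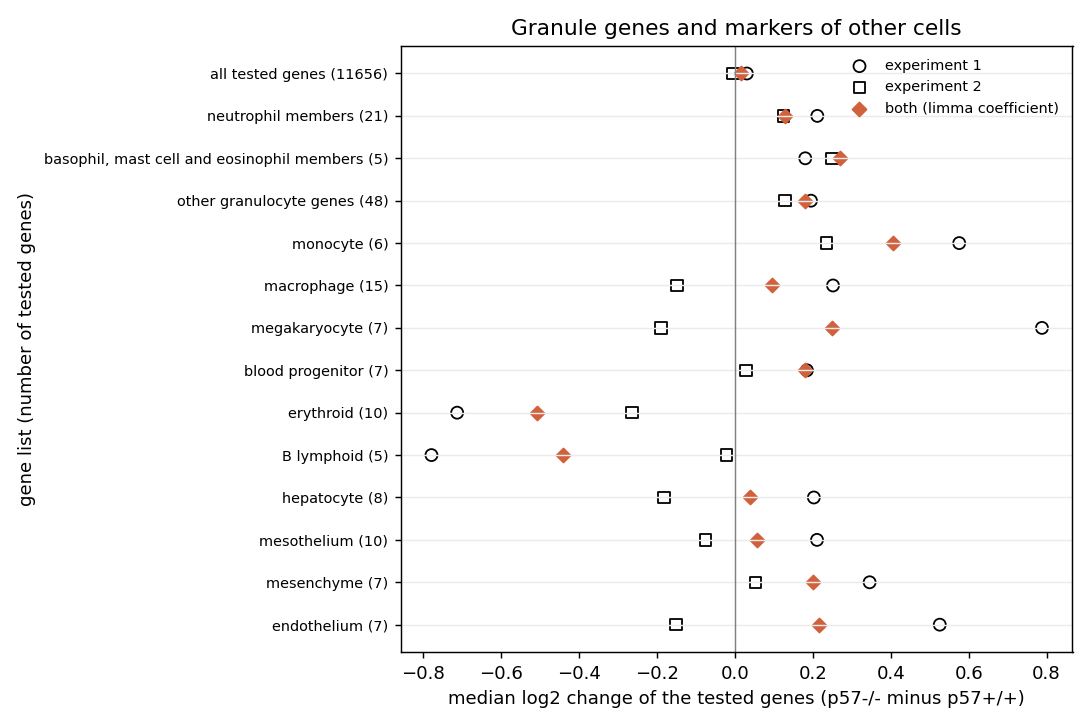
Each row is a gene list, and the horizontal axis gives the median log2 change of its tested genes, with circles for experiment 1, squares for experiment 2 and diamonds for both. Neutrophil members lie at 0.21 and 0.12 in the 2 experiments, while megakaryocyte markers lie at 0.79 and -0.19 and erythroid markers at -0.71 and -0.26.

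Several of the remaining marker lists differed in direction between the experiments. All 7 tested megakaryocyte markers were higher in p57-/- in experiment 1 and lower in experiment 2, as were all 8 hepatocyte markers. Endothelial markers were higher for 7 of 7 in experiment 1 and 1 of 7 in experiment 2. Mesothelial markers had 4 of 10 higher and 4 lower in both, and mesenchymal markers 5 of 7 higher and 1 lower. Blood progenitor markers had 4 of 7 higher and 2 lower, and B lymphoid markers 0 of 5 higher and 3 lower. Des, Pecam1 and Pax5 were the markers in these lists that were never called Present.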

How the data were processed

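Total RNA (250 ng per sample) was labelled from the 3' end and read on 1 Affymetrix array per sample, per the labels' protocols. The authors deposited MAS5 signal intensity per probe set on a linear scale, with a Present, Marginal or Absent call and its detection p-value, per the submitters' processing notes and the file headers. Version and settings of MAS5 are not stated there. The 2% trimmed mean was 500.003 on every array, so array averages are equal by construction and a change in total RNA is hidden. The deposited value table held the same intensities within 0.0005%. The number of arrays, 4, limits the precision.

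Intensities were log2 transformed with no pseudocount. Controls were left out, and 22800 probe sets Present on at least 2 arrays were tested in R 4.3.3 using limma 3.58.1 (lmFit, eBayes with a variance trend, no block, two-sided, Benjamini-Hochberg over all probe sets, threshold 0.05). The fit was tested on simulated data. The platform annotation gave 34945 probe sets 1 symbol, 932 several and 9160 none, and all 34 members had their symbol in RefSeq GRCm38.p6. Values are given for members whose geometric mean signal reached 500, whose fold was 1.5 or more in 1 direction in each experiment, or that were Present in 1 genotype alone. Of the other granulocyte genes, the 5 of largest change in the same direction in both experiments are named. The members and lists were chosen with earlier results of these data known.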

Additional observations from a re-analysis of the deposited data

How the results depend on the processing

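The pattern held its direction in the alternatives run, all on the same 4 arrays. Under quantile normalization, median centring, log2(signal + 16), no detection filter, Present calls on all 4 arrays, or all probe sets of a gene averaged, the members' median log2 change was 0.12 to 0.18, and 18 to 22 members were higher in both experiments with 0 lower. The lowest of each came from quantile normalization. Shares of all genes higher in both experiments are not given for these alternatives. Leaving out 1 array in turn gave medians of 0.13 to 0.20. These medians could not turn negative, because both p57-/- arrays lay above both p57+/+ arrays for 17 of the 27 members. In every alternative 0 member probe sets passed the threshold (limma), and the lowest adjusted p of a member named by the rule was 0.111, for Mmp8 without p57-/- replicate 2. Medians for experiments 1 and 2 alone and without Hp1bp3 were chosen after seeing the data.

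The count over all probe sets was less stable. It was 1 with all arrays, 0 with Present calls on all 4 arrays, which leaves out Cdkn1c, and 5 to 221 when 1 array was left out, where 221 came without p57-/- replicate 2, 12 without p57-/- replicate 1, 9 without p57+/+ replicate 2 and 5 without p57+/+ replicate 1. With the experiment number as a replicate block it was 30, with 10 higher and 20 lower, and 0 members. Deviations of same-numbered arrays had a correlation of 0.005 over probe sets. The main fit had no block, while the changes given per experiment compare the arrays of the same experiment number.

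Of 230 single-gene values, 218 kept their direction, and the 12 that turned belonged to 6 genes whose groups overlapped. Many of the 230 could not turn. Changing the detection filter, the variance trend or the block leaves the log2 change of a probe set as it is. Leaving out 1 array cannot turn a gene whose groups do not overlap. Over the fits that left out 1 array, Elane ran from -0.134 to 0.174, Camp from -0.0701 to 0.121, Anxa1 from -0.0355 to 0.0653, Cd177 from -0.0210 to 0.195 and Itgb2l from -0.0578 to 0.0521. After quantile normalization Camp was at -0.0165, S100a8 at -0.0127 and Anxa1 at -0.0148. The cause was not tested. Differences of this size were within the spread between arrays.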

Other observations

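Dim probe sets of mast cell and eosinophil genes, Absent on all 4 arrays and not tested, are given as values. Fcer1a gave 1.10 and 1.13 in p57+/+ against 2.02 and 22.7 in p57-/-. Cpa3 gave 96.6 and 154 in p57+/+ against 158 and 101 in p57-/-. Epx gave 5.76 and 28.7 in p57+/+ against 16.2 and 46.1 in p57-/-, higher in experiment 2 for both genotypes. Prg3 gave 13.7 and 14.9 against 18.8 and 6.52. The Cxcr2 probe set, Present on 1 array, gave 185 and 202 in p57+/+ against 174 and 253 in p57-/-.

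Several monocyte and progenitor genes were not described by name above. F13a1, which encodes a clotting factor subunit made by monocytes and macrophages, was at 0.86 (SE 0.23), with 1.24 in experiment 1 and 0.48 in experiment 2. The monocyte chemokine receptor gene Cx3cr1 was at 0.56 (SE 0.20), while Ccr2 was at 0.07 (SE 0.20). Myb, a transcription factor gene of immature blood cells, was at 0.32 (SE 0.13), with 0.28 and 0.36 in experiments 1 and 2. None of these passed (limma, lowest adjusted p = 0.549), and they were named after their values were seen.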
